A study of Rattus norvegicus with 9 samples.

Results

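The mitochondrial DNA of the rat carries genes for proteins of the respiratory chain, and 10 of them were followed here in the prefrontal cortex (PFC) of 9 male Wistar rats. The 10 genes were *ATP8*, *ATP6*, *COX1*, *COX2*, *COX3*, *CYTB*, *ND1*, *ND2*, *ND4* and *ND5*, chosen by name from a table of 37209 genes. *ATP8* had drawn attention because its counts in MS rats stood above those in Control rats in these same animals, and the other 9 genes were taken because they share its genome. The values of *ATP8*, and those of all mitochondrial protein genes in the comparison of MS with Control, are therefore given as a description without a test. All 10 genes passed the filter on low counts, which kept 16837 genes. The other protein genes of the mitochondrial DNA, *ND3*, *ND4L* and *ND6*, are also in the table and are described beside the 10, which makes 13 in all.

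The Control group (A1, A2 and A6) consisted of 3 rats left with their mothers until weaning. The MS group (B3, B4 and B6) consisted of 3 rats whose mothers had been moved to another cage for 4 h daily between postnatal day (PND) 1 and PND 21, which is maternal separation, a rat model of early life stress. The EA group (C3, C10 and C16, labelled MS+EA) consisted of 3 rats with the same separation and then electroacupuncture, a weak current passed through needles, at the head points GV20 and GV29 every other day from PND 61 to PND 81 under isoflurane. According to the study's methods, Control and MS rats were given the anaesthesia without needles. All rats were 14 weeks old, and the labels name the tissue as frontal cortex. The sham-treated rats of the study were not among the sequenced animals, and the sources do not give the litter, the cage or a sequencing batch of any rat.

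Mitochondrial DNA is a small circle that is read into long precursor RNAs from both strands. Transfer RNA genes lie between most of the others, and cutting the precursors at the tRNAs releases the messenger RNAs, so that mRNAs of 1 precursor can still differ in level through processing and decay. The proteins are core subunits of complexes I, III and IV, which pump protons while electrons pass to oxygen, and of the ATP synthase, which uses the proton flow to make ATP. All other subunits, and the whole of complex II, are encoded in the nucleus. Neurons of the cortex depend heavily on this machinery for ion pumping and synaptic transmission.

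The number of counted reads per rat was 16153292 to 19007907 in Control, 16106381 to 17243320 in MS and 12479905 to 14913736 in EA. The 10 genes took between 2.67% (C10) and 3.68% (B3) of the reads of a rat. The counts of *COX1* were 53.4% to 60.3% of those of all 13 protein genes, so sums over the genes mostly follow *COX1*. Levels are given as CPM (counts scaled to a fixed library total), adjusted between rats by TMM, a factor estimated from the bulk of genes. CPM values are not corrected for gene length, and levels of different genes were not compared. The lowest count of any of the 10 genes in any rat was 1561, where counting alone gives a coefficient of variation of 2.53%, below the spread between rats of that gene in every group. A gene was taken as changed at an adjusted p under 0.05 (edgeR quasi-likelihood F test, Benjamini-Hochberg over all 16837 genes) together with a fold change above 1.5.

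*ATP8* encodes a small membrane subunit of the ATP synthase. Its level was 122, 95.1 and 132 CPM in the Control rats, 316, 289 and 326 CPM in the MS rats and 251, 343 and 290.3 CPM in the EA rats. Every MS and EA rat lay above every Control rat, and the MS and EA rats overlapped. The group means were 117 ± 19.2, 310.2 ± 19.4 and 295 ± 46.2 CPM (SD, n = 3 each). The log2 fold change was 1.41 ± 0.13 (SE) between MS and Control, 1.34 ± 0.13 (SE) between EA and Control and -0.07 ± 0.12 (SE) between EA and MS. These correspond to 2.66-fold, 2.53-fold and 0.951-fold. The EA and MS comparisons with Control rest on the same 3 Control rats.

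*ATP6* encodes the subunit that forms the proton path of the ATP synthase, and its reading frame overlaps that of *ATP8* on a shared mRNA. Its level was 806, 751 and 813 CPM in Control, 1289, 1046 and 1177 CPM in MS, and 918, 982 and 1133 CPM in EA. All MS and all EA rats lay above all Control rats for *ATP6* too, by a smaller factor than for *ATP8*. *ATP6* had a log2 fold change of 0.57 ± 0.09 (SE) between MS and Control. In EA against Control rats it was 0.36 ± 0.09 (SE, adjusted p = 0.0434), which passed the adjusted p but not the fold threshold, and lay above 0.05 without any 1 Control rat, B6, C10 or C16 (at most 0.146). Against MS it was -0.21 ± 0.09 (SE, adjusted p = 0.372), and the groups overlapped. Counts in the region where the reading frames overlap may have been split between both genes or dropped, since the counting rules are not given in the sources used here.

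**Figure D1:**
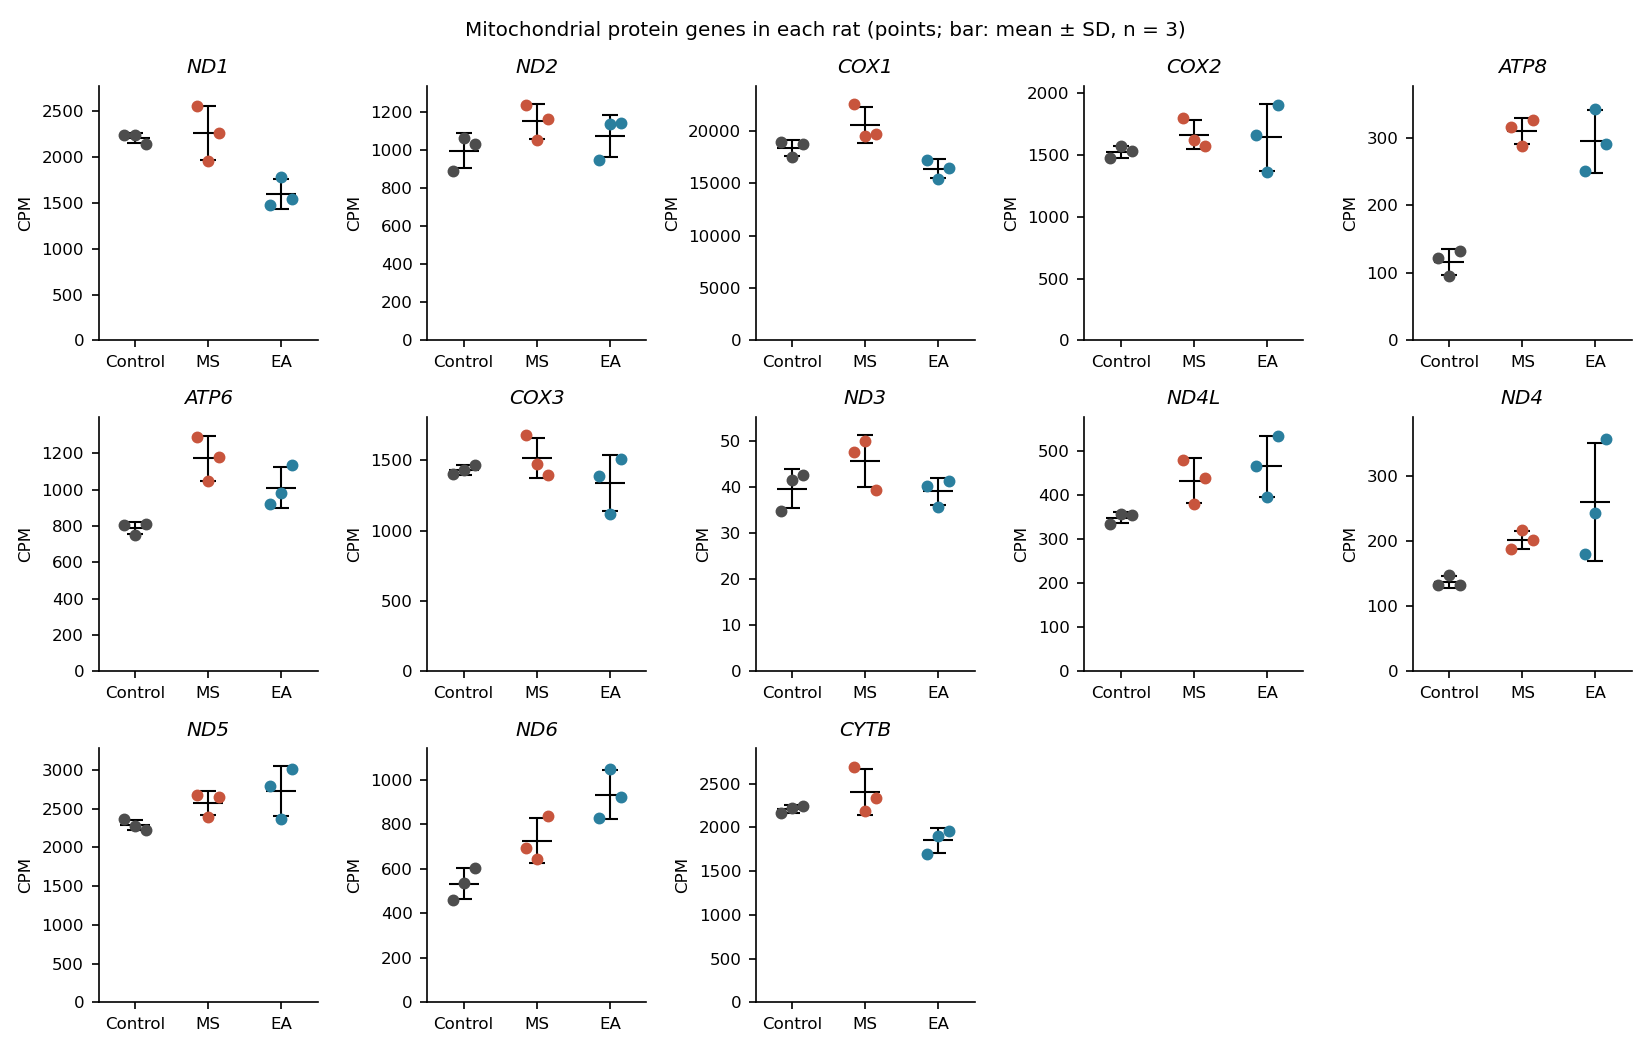
Level in CPM (TMM-scaled, vertical axis from 0, separate scale per panel) of the 13 mitochondrial protein genes in each rat (points) of the Control, MS and EA groups, with mean and SD of 3 rats. The 3 Control rats lie below all others for *ATP8* (95.1 to 132 CPM against 251 to 343 CPM), while the 3 EA rats lie below all others for *ND1* (1473 to 1781 CPM against 1961 to 2559 CPM).

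Of the complex I genes, *ND4* rose in EA rats relative to Control and *ND1* was lower in EA rats than in all other rats without passing the fold threshold. *ND4* encodes a core subunit of the proton-pumping membrane arm. Its counts may not measure the level of its mRNA, as set out with *ND4L* below, so its values and its call are those of the counted reads only. Its level was 132.4, 148 and 132.4 CPM in Control, 188, 217 and 201 CPM in MS, and 179.8, 244 and 357 CPM in EA. Each MS and EA rat lay above each Control rat, and the EA rats spread far more than the others, with a coefficient of variation of 34.5% against 6.47% in Control and 6.98% in MS. The log2 fold change between EA and Control was 0.92 ± 0.18 (SE, adjusted p = 0.0161), or 1.89-fold. C16 was the highest rat, and without it the log2 fold change was 0.62 (adjusted p = 0.0263). The call was lost without Control A1 (0.89, adjusted p = 0.0807) or without Control A6 (0.90, adjusted p = 0.0586). Between MS and Control the log2 fold change of *ND4* was 0.56 ± 0.18 (SE). Against MS the EA rats stood at 0.36 ± 0.18 (SE, adjusted p = 0.424) and 0.07 without C16.

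*ND1* encodes a subunit at the junction of the membrane arm with the quinone-binding region of complex I, and is the first protein gene after the rRNA genes. Its level was 2234, 2236 and 2146 CPM in Control, 2559, 1961 and 2263 CPM in MS, and 1473, 1781 and 1537 CPM in EA. The EA rats lay below all Control and all MS rats, and the Control rats lay within the range of the MS rats. The log2 fold change was -0.47 ± 0.10 (SE, adjusted p = 0.0217) between EA and Control, or 0.724-fold, past the adjusted p but not the fold threshold. Leaving out Control A1, A2 or A6 or EA C16 gave an adjusted p of 0.0892, 0.0516, 0.0610 and 0.0686. The log2 fold change was -0.50 ± 0.10 (SE, adjusted p = 0.184) between EA and MS, and 0.04 ± 0.10 (SE) between MS and Control. Of 78 tested nuclear genes for subunits of the same complexes, 0 had a lower value than *ND1* in either comparison of EA. The lowest between EA and Control, a complex I gene, was at -0.459 ± 0.185 (SE), beside -0.466 for *ND1*, so the 2 were not told apart. The lowest between EA and MS was -0.356, beside -0.501 for *ND1*.

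*ND2* and *ND5*, further subunits of the membrane arm, differed less. *ND2* was at 892, 1063 and 1034 CPM in Control, 1237, 1054 and 1161 CPM in MS, and 947, 1136 and 1141 CPM in EA. The groups overlapped for *ND2* in each comparison, with log2 fold changes of 0.21 ± 0.09 (MS and Control), -0.10 ± 0.09 (EA and MS, adjusted p = 0.703) and 0.11 ± 0.09 (EA and Control, adjusted p = 0.533). *ND5* was at 2362, 2274 and 2228 CPM in Control, 2674, 2397 and 2645 CPM in MS, and 2797, 2371 and 3013 CPM in EA. All MS and EA rats exceeded all Control rats for *ND5*, with a log2 fold change of 0.17 ± 0.09 between MS and Control. Between EA and Control it was 0.25 ± 0.09 (adjusted p = 0.105), and between EA and MS 0.08 ± 0.09 (adjusted p = 0.728).

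Among the remaining complex I genes of the mitochondrial DNA, *ND6* rose in EA rats. *ND6* is the protein gene that lies on the opposite strand from the others. Its level was 462, 538 and 602 CPM in Control, 692, 645 and 839 CPM in MS, and 828, 1048 and 921 CPM in EA, so that both other groups lay above Control and overlapped each other. The log2 fold change of *ND6* between EA and Control was 0.80 ± 0.12 (SE, adjusted p = 0.00711), or 1.75-fold, and the call held when any 1 of the 9 rats was left out (0.71 to 0.91, adjusted p at most 0.0423). The EA rats differed from MS by 0.36 ± 0.12 (SE, adjusted p = 0.275), and between MS and Control 0.44 ± 0.12 (SE). Since no strand setting is given, reads of *ND6* cannot be told apart from reads of the RNA on the other strand of the same stretch.

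*ND4L*, which shares an mRNA with *ND4*, was at 334, 357 and 354 CPM in Control, 479, 378 and 438 CPM in MS, and 465, 395 and 534 CPM in EA. Its log2 fold change between EA and Control was 0.41 ± 0.11 (SE, adjusted p = 0.0422), past the adjusted p but not the fold threshold, with an adjusted p of up to 0.165 when 1 rat was left out. Against MS the value was 0.11 ± 0.11 (SE, adjusted p = 0.723). *ND3* was at 34.8 to 42.5 CPM in Control, 39.4 to 50.05 CPM in MS and 35.7 to 41.4 CPM in EA, and its groups overlapped in each comparison. Although *ND4L* and *ND4* sit on the same mRNA, the counts of *ND4* relative to those of *ND4L* were not constant. They were 37.4% to 41.4% in Control, 39.3% to 57.3% in MS and 38.7%, 61.6% and 66.9% in EA. C10 and C16, the EA rats with the higher *ND4* levels, had the highest ratios of the 9 rats. In every rat *ND4* had fewer counts than *ND4L*. Whether the row of *ND4* holds all reads of its part of the mRNA was not tested, so its values may not measure the level of that mRNA. Copies of mitochondrial DNA in the nuclear genome can share reads with these genes, and how reads with several locations were counted is not given, so the counts of *ND4* and the other genes are uncertain in that respect.

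*CYTB*, the mitochondrial subunit of complex III, was at 2161, 2225 and 2240 CPM in Control, 2692, 2190 and 2333 CPM in MS, and 1693, 1906 and 1958 CPM in EA. The EA rats lay below all others, and Control and MS overlapped. *CYTB* had log2 fold changes of -0.25 ± 0.08 (SE, adjusted p = 0.0975) between EA and Control, -0.38 ± 0.08 (SE, adjusted p = 0.184) between EA and MS and 0.12 ± 0.08 (SE) between MS and Control.

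Complex IV (cytochrome c oxidase) has 3 mitochondrial subunits, which form its catalytic core. *COX1*, which holds the oxygen-reducing centre, was at 18891, 17470.1 and 18743 CPM in Control, 22526, 19477.5 and 19677 CPM in MS, and 17233, 15429 and 16405 CPM in EA. Its groups did not overlap in any comparison, with MS highest and EA lowest. *COX1* had a log2 fold change of 0.16 ± 0.08 (SE) between MS and Control. For EA against MS it was -0.33 ± 0.08 (SE, adjusted p = 0.205), and between EA and Control -0.17 ± 0.08 (SE, adjusted p = 0.239).

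*COX2*, which takes up electrons from cytochrome c, was at 1474 to 1576 CPM in Control, 1573 to 1802 CPM in MS and 1364 to 1906 CPM in EA. *COX3*, a structural core subunit, was at 1399 to 1469 CPM in Control, 1398 to 1677 CPM in MS and 1120 to 1506 CPM in EA. Groups overlapped for both genes in every comparison. The log2 fold changes were 0.13 ± 0.10 and 0.08 ± 0.10 between MS and Control for *COX2* and *COX3*. Between EA and MS they were -0.02 ± 0.10 (adjusted p = 0.961) and -0.18 ± 0.10 (adjusted p = 0.489), and between EA and Control 0.11 ± 0.10 (adjusted p = 0.583) and -0.10 ± 0.10 (adjusted p = 0.612). For *COX2* and *COX3* the EA rats varied most, with coefficients of variation of 16.5% and 14.8%, against 3.34% and 2.46% in Control.

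**Figure D2:**
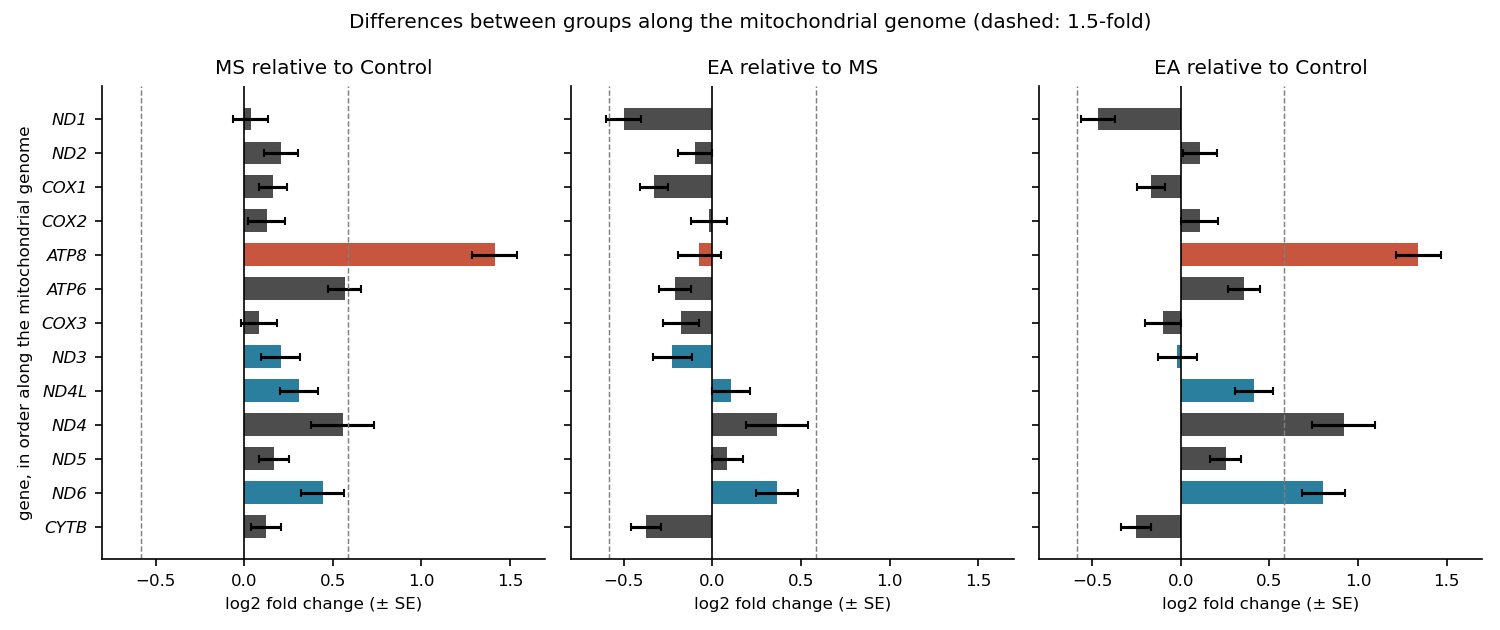
Log2 fold change (horizontal axis, ± SE, from the edgeR fit of 9 rats) of the 13 mitochondrial protein genes in their order along the mitochondrial genome, for each of the 3 comparisons. Dashed lines mark a 1.5-fold difference, red the gene *ATP8*, grey the other 9 chosen genes and blue *ND3*, *ND4L* and *ND6*. *ATP8* stands at 1.41 and 1.34 in the comparisons with Control and at -0.07 between EA and MS, and *ND1* at -0.47 and -0.50 in the EA comparisons.

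Between MS and Control, 0.0238% of all tested genes passed both thresholds used for calling, and 0.0178% did so with a higher level in MS. *ATP8* was chosen for its rise in this comparison. Its passing the thresholds here therefore follows from the choice and is not counted as a result. The other 9 genes were higher on average in MS by 0.04 to 0.57 on the log2 scale, with a median of 0.16 against 0.00 over all tested genes. All 9 were higher with TMM, with the size factors of DESeq2 and with total counts. When the rats were scaled to the summed counts of the 9 genes themselves, 5 were higher and 4 lower. That scaling holds the sum of the 9 genes equal between rats. A mix of signs is therefore built into it, here and in the comparisons below, and says nothing about their common direction. Without rat B3, which was the highest MS rat for 8 of the 9 genes, 8 were higher and 1 lower, and the median was 0.09. A mean above that of Control was found for 49.7% of all tested genes. *ATP6*, *COX1*, *ND4* and *ND5* did not overlap between MS and Control, all higher in MS, where 17.6% of all tested genes did not overlap in either direction.

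In EA compared with MS rats, none of the 9 genes other than *ATP8* passed both thresholds with edgeR, against 0.0178% of all tested genes. Of these 9, 4 had an unadjusted p under 0.05, and all 4 (*ATP6*, *COX1*, *CYTB* and *ND1*) were lower in EA. An unadjusted p under 0.05 was found for 12.4% of all genes, and with a lower level in EA for 6.42%. With the DESeq2 Wald test, 0 of the 9 passed both thresholds, where 42 of all 16837 genes did. At the adjusted p alone 3 of the 9 passed, *ND1* (0.000814), *CYTB* (0.00952) and *COX1* (0.00968), all lower in EA. These 3 did not pass it with edgeR, so this result depends on the test. The share of all genes at the adjusted p alone with DESeq2 was not counted, so nothing is read from the 3. The median log2 fold change of the 9 was -0.18, against 0.00 over all genes, of which 50.1% were higher. It was -0.10 without B3 and -0.27 without C16. With TMM, 7 were lower and 2 (*ND4* and *ND5*) higher, with total counts 6 were lower and 3 higher, and with scaling to the summed counts of the 9 genes 3 were lower and 6 higher. That last scaling moved the median of all genes by 0.26 and put *ND4* past both thresholds (0.62, adjusted p = 0.0430), and *ND6* as well (0.63, adjusted p = 0.0264). With it, 608 of the 16837 tested genes passed both thresholds, against 3 with TMM, so these 2 calls are not set against the 0.0178% above. *COX1*, *CYTB* and *ND1* did not overlap between EA and MS, all lower in EA, where 9.60% of all tested genes showed this.

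In EA compared with Control rats, 1 of the 9 genes other than *ATP8* passed both thresholds (*ND4*), in a comparison in which 1.37% of all tested genes did and 1.25% did so with a higher level in EA. At the adjusted p alone 3 of the 9 passed (*ND4* and *ATP6* higher, *ND1* lower), where 5.40% of all genes did. The signs of the 9 genes were mixed, with 5 higher and 4 lower in EA under TMM, DESeq2 size factors and total counts (6 and 3 with scaling to their own sum). Their median was 0.11 against 0.01 over all genes, of which 50.9% were higher. Without C16 the median was -0.01, with 4 genes higher and 5 lower, and it was 0.03 without A1 and 0.07 without C10. *ATP6*, *ND4* and *ND5* lay above Control in every EA rat, and *COX1*, *CYTB* and *ND1* lay below Control in every EA rat. The share of all genes without overlap was 13.0% for higher and 12.9% for lower levels. The Control rats are the same as in the comparison of MS with Control.

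The summed level of the 9 genes was 30351, 29172 and 30337 CPM in Control, 36646, 31437 and 32426 CPM in MS, and 28293, 26333 and 28958 CPM in EA. MS rats were highest and EA rats lowest with no overlap, but the gap between the lowest Control rat and the highest EA rat was small. As a raw share of counts with *ATP8* included, Control A2 and EA C3 were both at 2.96%, so the groups met there. On the log2 scale the sums differed by 0.16 (MS and Control), -0.26 (EA and MS) and -0.11 (EA and Control). Without B3 the first value was 0.09.

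*ATP8* did not keep a fixed proportion to the other genes. Its counts were 0.403%, 0.326% and 0.435% of those of the other 9 genes in the Control rats. MS rats had 0.862%, 0.918% and 1.01%, and EA rats had 0.888%, 1.30% and 1.003%. Relative to *ATP6* alone, with which it shares an mRNA, *ATP8* had 15.2%, 12.7% and 16.3% of the counts in Control. The values were 24.5%, 27.6% and 27.7% in MS and 27.4%, 34.9% and 25.6% in EA. All MS and EA rats again lay above all Control rats, while MS and EA overlapped. The log2 difference from Control was 1.27 for MS and 1.45 for EA relative to the 9 genes, and 0.86 and 0.99 relative to *ATP6*. These ratios do not depend on the scaling between rats.

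*ATP6* also shifted relative to the other 8 genes, from 2.64% to 2.75% of their counts in Control to 3.44% to 3.77% in MS and 3.35% to 4.07% in EA. The 2 genes of the bicistronic ATP synthase mRNA both held a larger part of the mitochondrial mRNA counts in MS and EA rats than in any Control rat.

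A ratio picked after the values were seen, *ND1* relative to *ND5*, separated the EA rats from the others. The counts of *ND1* were 94.6%, 98.3% and 96.3% of those of *ND5* in Control, 95.7%, 81.8% and 85.5% in MS, and 52.7%, 75.1% and 51.0% in EA. The EA mean was 59.6% ± 13.5 (SD, n = 3), against 96.4% ± 1.86 (SD, n = 3) in Control and 87.7% ± 7.18 (SD, n = 3) in MS. Along with *ND1*, the share of *COX1* in the counts of the 13 genes was 59.3% ± 1.28 in Control, 58.7% ± 0.851 in MS and 55.3% ± 2.20 in EA (SD, n = 3 each), and that of *ND5* was 7.38% ± 0.264, 7.36% ± 0.382 and 9.19% ± 0.704.

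**Figure D3:**
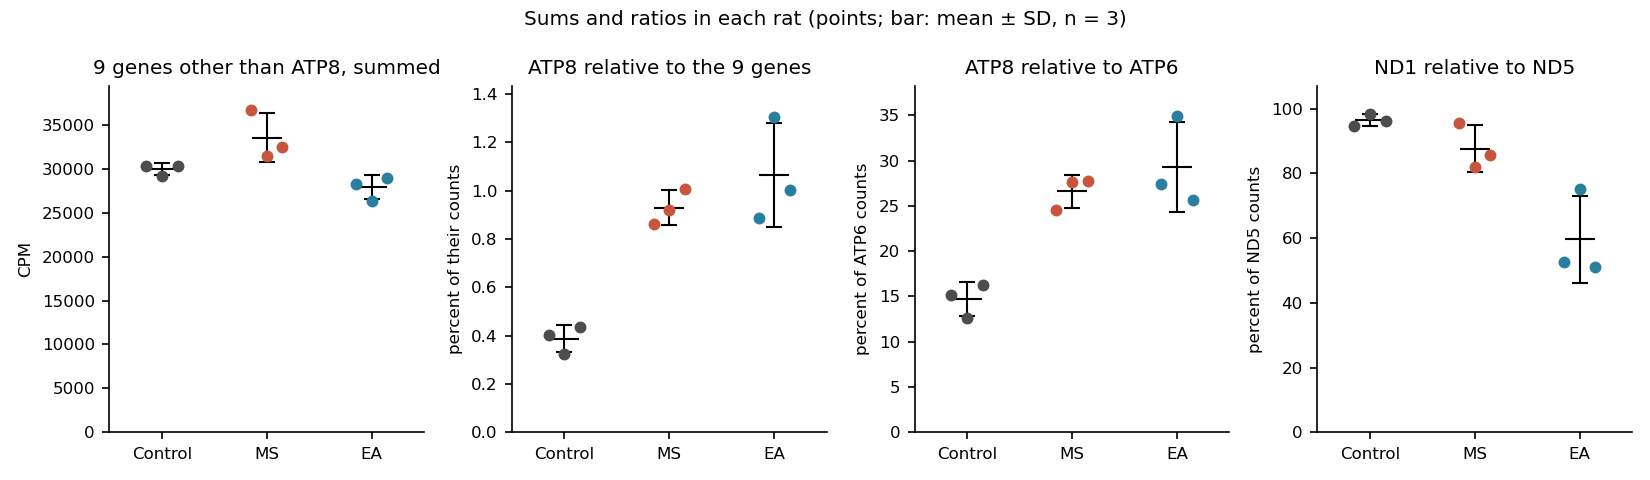
Values per rat (points) with mean and SD of 3 rats for the summed CPM of the 9 genes other than *ATP8*, the counts of *ATP8* as a percentage of those 9 genes and of *ATP6*, and the counts of *ND1* as a percentage of *ND5* (vertical axes from 0). *ATP8* relative to *ATP6* lies at 12.7% to 16.3% in Control and at 24.5% to 34.9% in MS and EA, and *ND1* relative to *ND5* at 51.0% to 75.1% in EA against 81.8% to 98.3% elsewhere.

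The libraries had been depleted of rRNA, and what remained of the mitochondrial rRNAs is no measure of their level in the tissue. *Rnr2*, which by its name is the large mitochondrial rRNA, rose in EA relative to Control, with a log2 fold change of 0.97 ± 0.23 (SE, adjusted p = 0.0311). The call was lost without EA C10 (0.70, adjusted p = 0.0865) and without Control A1, A2 or A6 (0.74 to 1.19, adjusted p at most 0.0811). It was at 457, 234 and 372 CPM in Control, 510.5, 633 and 675 CPM in MS, and 591, 930.1 and 559 CPM in EA. Each MS and EA rat lay above each Control rat for *Rnr2*, as for *ATP8*. How far depletion varied between libraries was not tested. *Rnr1*, the small rRNA by name, was at 12.1 ± 5.42, 17.7 ± 4.33 and 16.1 ± 1.56 CPM (SD, n = 3 each). The table has a row for 22 genes that by their short names are the mitochondrial tRNAs, but together they had only 765 to 1123 counts per rat, and 12 passed the filter. None of the 12 passed both thresholds in any comparison with edgeR (0, 0 and 4 had an unadjusted p under 0.05 in MS and Control, EA and MS, and EA and Control). Of all tested genes, 10.6%, 12.4% and 22.5% had such a p in the same order. *Trnk*, the tRNA gene between *COX2* and *ATP8*, was at 0.443 ± 0.226, 0.805 ± 0.219 and 0.775 ± 0.440 CPM (SD, n = 3 each) in Control, MS and EA, with a log2 fold change of 0.84 ± 0.56 (SE) between MS and Control.

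The nuclear genes for subunits of the same complexes are described here beside the mitochondrial genes. The table holds 82 such genes and 78 of them were tested, and 0 passed both thresholds in each comparison with edgeR and with DESeq2. An unadjusted p under 0.05 was reached by 4 (MS and Control), 4 (EA and MS) and 16 (EA and Control, 3 higher and 13 lower). The share of all tested genes at that threshold was 10.6%, 12.4% and 22.5%, and in the last comparison 11.9% were higher and 10.6% lower. The median log2 fold change of the 78 genes was -0.04 between MS and Control, -0.05 between EA and MS and -0.10 between EA and Control. Between EA and Control, where 5.40% of all tested genes passed at the adjusted p alone, 2 of the 78 did, both lower in EA. They were *Cyc1*, the cytochrome c1 subunit of complex III (-0.36 ± 0.09, SE, adjusted p = 0.0385), and *Atp5o*, a stalk subunit of the ATP synthase (-0.30 ± 0.08, SE, adjusted p = 0.0421). The 17 nuclear ATP synthase genes had medians of -0.06, -0.07 and -0.10, beside 1.41, -0.07 and 1.34 for *ATP8*. The other 9 mitochondrial genes had medians of 0.16, -0.18 and 0.11. *ATP8* was chosen for its rise over the same Control rats, so nothing is read from its place above the nuclear genes. Only *Ndufa12*, a complex I gene at 1.37 ± 0.394 CPM in Control, exceeded *ATP8* in the comparisons with Control, and its value rested on few reads (4.83 ± 5.23 CPM in MS and 4.06 ± 4.54 CPM in EA, SD, n = 3).

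By complex, the medians of the tested nuclear genes between EA and Control were -0.05 (complex I, 34 genes), 0.02 (complex II, 4 genes), -0.15 (complex III, 9 genes), -0.13 (complex IV, 14 genes) and -0.10 (ATP synthase, 17 genes). The summed level of the 9 mitochondrial genes was 5.38 ± 0.230 times that of the nuclear genes in Control, 6.22 ± 0.650 times in MS and 5.28 ± 0.280 times in EA (SD, n = 3 each). The 3 MS rats lay above all other rats in this ratio, and Control and EA overlapped.

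**Figure D4:**
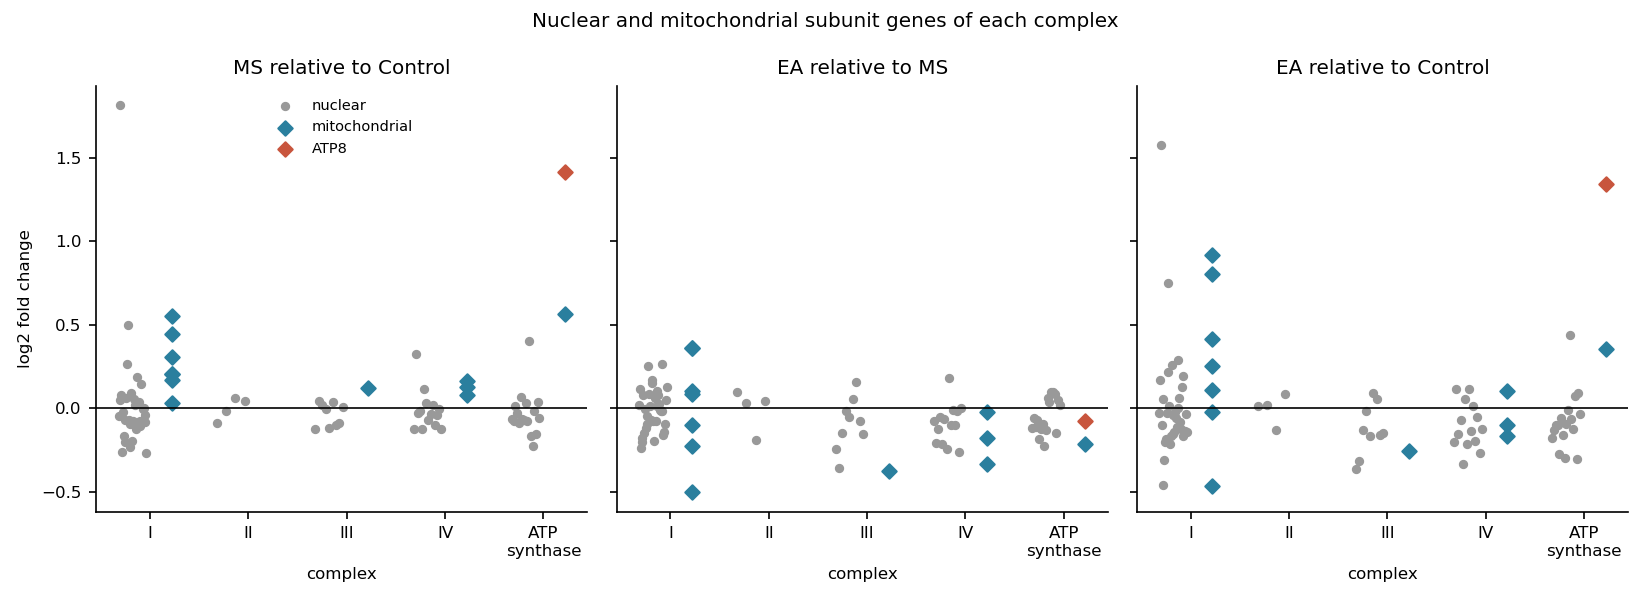
Log2 fold change (vertical axis) of the 78 tested nuclear subunit genes (grey points, spread sideways for legibility) and the 13 mitochondrial genes (blue diamonds, *ATP8* red) by complex, for each comparison. *ATP8* lies at 1.41 and 1.34 above the nuclear ATP synthase genes in the comparisons with Control (medians -0.06 and -0.10), and the grey point above it is *Ndufa12*, which had few reads. *ATP8* was chosen for its rise over Control, so its place is given as a description.

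Genes that act on mitochondrial RNA and DNA were counted in lists. In each of the 5 lists that follow, 0 genes passed both thresholds in any comparison with edgeR. Among all tested genes, an unadjusted p under 0.05 was found for 10.6% (MS and Control), 12.4% (EA and MS) and 22.5% (EA and Control). An adjusted p under 0.05 was found for 5.40% of them between EA and Control. Of 14 tested genes of mitochondrial transcription and replication, 1 was higher and 1 lower at an unadjusted p under 0.05 between MS and Control, and 1 was higher in each EA comparison. *Mgme1*, a nuclease that acts in mitochondrial DNA maintenance, had the largest difference between MS and Control (0.62 ± 0.24, SE, adjusted p = 0.388), at 2.31 ± 0.176, 3.54 ± 0.547 and 2.65 ± 0.613 CPM (SD, n = 3) in Control, MS and EA. *Polrmt*, the mitochondrial RNA polymerase, was at 22.9 ± 2.21, 18.2 ± 2.23 and 19.2 ± 1.59 CPM (SD, n = 3) in Control, MS and EA, with a log2 fold change of -0.33 ± 0.12 (SE, adjusted p = 0.329) between MS and Control. *Ssbp1*, which binds single-stranded mitochondrial DNA, had 0.48 ± 0.14 (SE, adjusted p = 0.0586) between EA and Control. Of 21 tested genes of mitochondrial RNA processing and stability, 2 were higher and 1 lower at an unadjusted p under 0.05 between EA and Control, 2 were higher and 2 lower between EA and MS, and 1 was higher between MS and Control. *Pnpt1*, a nuclease of mitochondrial RNA decay, passed the adjusted p between EA and Control (0.44 ± 0.11, SE, adjusted p = 0.0440), and *Fastk*, whose mitochondrial form keeps *ND6* mRNA stable, had -0.29 ± 0.08 (SE, adjusted p = 0.0521) in the same comparison.

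Among 8 regulators of mitochondrial biogenesis, 2 were higher at an unadjusted p under 0.05 between MS and Control and 3 between EA and Control. Of all tested genes, 10.6% and 22.5% reached that threshold in these comparisons in either direction. With a higher level in EA than in Control the share was 11.9%. The deacetylase gene *Sirt1* (0.46 ± 0.11, SE, adjusted p = 0.0317) and *Gabpa*, which encodes a subunit of a transcription factor of nuclear respiratory genes (0.35 ± 0.09, SE, adjusted p = 0.0363), passed the adjusted p in EA relative to Control. So did 5.40% of all tested genes. The 10 genes counted as a sign of mitochondrial content had medians of 0.01, -0.01 and 0.04 in the 3 comparisons, and *Tomm20*, an import receptor of the outer membrane, had the largest value between EA and Control (0.28 ± 0.10, SE, adjusted p = 0.113). Of the 5 assembly factors of the ATP synthase, 4 were higher in MS than in Control and 4 in EA than in Control, none at an unadjusted p under 0.05. Of all tested genes, 49.7% and 50.9% were higher in these comparisons.

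The marker genes of cortical excitatory neurons were present in every group, and none of the 6 was at 0. In bulk tissue, fewer cells of a type and less RNA per cell cannot be told apart. Some marker lists differed along with the levels above. Between MS and Control, 10.6% of all tested genes had an unadjusted p under 0.05 and 49.7% were higher. Of all tested genes, 17.6% did not overlap between MS and Control in either direction. The share without overlap and higher in EA than in Control was 13.0%. The 5 red blood cell genes were all higher in MS than in Control (4 at an unadjusted p under 0.05, 0 past both thresholds with edgeR, median 0.87). Their summed level was 94.5 to 199 CPM in Control, 223 to 305 CPM in MS and 211 to 304 CPM in EA, which separates Control from the rest as *ATP8* does. Of the choroid plexus genes, the 4 tested were higher in MS (2 at an unadjusted p under 0.05), with summed levels of 3.15 to 3.73, 3.50 to 14.7 and 3.21 to 5.20 CPM. The 5 endothelial genes were also all higher in MS than in Control (1 at an unadjusted p under 0.05, median 0.22), at summed levels of 149 to 163, 169 to 193 and 157 to 185 CPM. Lower in MS than in Control were all 6 oligodendrocyte genes (median -0.23), all 6 microglial genes (-0.07) and 4 of 6 striatal genes (-0.20), none of these at an unadjusted p under 0.05. The medians of the cortical excitatory neuron, neuron and astrocyte lists in this comparison were -0.04, -0.03 and 0.04. The part of these lists in the results was not tested.

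Between EA and MS all 6 oligodendrocyte genes were higher in EA (1 at an unadjusted p under 0.05, median 0.44), with summed levels of 1829 to 2904 CPM in MS and 2043 to 4171 CPM in EA. The 6 striatal genes were at 144 to 169.7 CPM in MS and 168 to 195 CPM in EA, with 5 of 6 higher in EA (2 at an unadjusted p under 0.05). Between EA and MS, 12.4% of all tested genes had an unadjusted p under 0.05 and 50.1% were higher. *Slc17a7*, the vesicular glutamate transporter of cortical excitatory neurons, was lower in EA than in Control (-0.30 ± 0.06, SE, adjusted p = 0.0207, under the fold threshold). Its list did not move one way, with 2 genes higher and 4 lower, a median of -0.01 and *Neurod6* at 0.29 ± 0.18 (SE, adjusted p = 0.374). The summed level of the list, most of it *Slc17a7*, was 1973 to 2028 CPM in Control, 1832 to 1946 CPM in MS and 1583 to 1787 CPM in EA. The medians between EA and Control were below 0 for the 5 neuronal (-0.05), 6 astrocyte (-0.05) and 6 microglial genes (-0.20). They were above 0 for the 5 endothelial (0.06), 6 oligodendrocyte (0.15), 6 striatal (0.15), 4 tested choroid plexus (0.40) and 5 red blood cell genes (0.69). All 5 red blood cell genes and all 6 oligodendrocyte genes were higher in EA than in Control, where 50.9% of all tested genes were. The part of these lists in the EA results was not tested either.

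The genes whose levels followed *ATP8* most closely over the 9 rats were *Tmem168* (Pearson r = 0.97), *Fam8a1* (0.97), *Cmpk1* (0.97), *Znf761* (0.96) and *Creb1* (0.96), all in log2 CPM. For *Cmpk1*, which encodes a nucleotide monophosphate kinase, levels were 56.3 ± 2.87, 84.0 ± 4.99 and 90.3 ± 10.6 CPM (SD, n = 3) in Control, MS and EA. For *Creb1*, a transcription factor responsive to cyclic AMP, they were 65.9 ± 3.08, 89.6 ± 4.43 and 90.8 ± 5.12 CPM (SD, n = 3). The 9 points share the gap between Control and the other 2 groups. Among the mitochondrial protein genes, *ATP8* was most like *ATP6* (r = 0.88), then *ND6* (0.82), *ND4* (0.75) and *ND4L* (0.70), and least like *ND1* (-0.31).

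The summed level of the 9 other genes was followed by *Cplx1* (0.98), *Zbtb8b* (0.96), *Thy1* (0.96), *Them6* (0.94) and *LOC102555167* (0.93). *Cplx1*, which encodes complexin, a protein of synaptic vesicle release, was at 251 ± 7.94, 269 ± 22.4 and 226 ± 10.5 CPM (SD, n = 3) in Control, MS and EA. *Thy1*, a surface protein of neurons, was at 610.2 ± 15, 644 ± 32.9 and 561 ± 16.1 CPM (SD, n = 3). These genes share the group means of the sum, with MS highest and EA lowest, and the sum mostly follows *COX1*. Both lists hold the highest of many correlations over 9 rats, so nothing is read from their sharing no gene.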

How the data were processed

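Total RNA from the PFC of 9 rats was stripped of rRNA and read on a HiSeq X instrument. The authors mapped the reads with HISAT2 2.0.4 to Rnor_6.0, per the labels and the submitters' processing notes, and deposited whole-number counts per gene without normalization. The counting program, its strand setting and its treatment of reads with several locations are not given in the sources used here.

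Groups came from the sample labels. Counts were analysed with edgeR 4.0.16 in R 4.3.3, with TMM scaling, filterByExpr (minimum count 10) and a quasi-likelihood fit of all 9 rats, with Benjamini-Hochberg adjustment over 16837 genes. The thresholds, those of the study, were 0.05 for the adjusted p and 1.5 for the fold change. The standard error was obtained from the log2 fold change and the F statistic, as their size over the root of F. Totals were 12479905 to 19007907 counts per rat, and 11255 genes had no count in any rat. Plots were drawn with matplotlib 3.10.9. The procedures were tested on simulated counts.

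The genes, lists and tests were chosen with earlier results of these data known. No p is given for *ATP8*, for any mitochondrial protein gene between MS and Control, or for sums and ratios (3 rats against 3 cannot go below an exact permutation p of 0.1). Named genes were all mitochondrial genes, genes of each list past both thresholds or, without one, up to 2 with the largest log2 fold change in a comparison, and the 5 genes most correlated with *ATP8* and with the summed 9 genes. The tRNA and rRNA genes, and the ratios of *ND1* to *ND5* and of *ND4* to *ND4L*, were added after the data were seen. Gene lengths and sequences of the mitochondrial genome were not used here. The lists, of nuclear subunits by complex, mitochondrial regulators and cell type markers, were hand-written. Alternatives were DESeq2 1.42.0, edgeR's likelihood ratio test, 2 other filters, 3 other scalings, a fit of 6 rats, no fold threshold and leaving out each rat.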

Additional observations from a re-analysis of the deposited data

How the results depend on the processing

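Of 210 recomputed log2 fold changes of the 13 protein genes and *Rnr2* in each comparison, 200 (MS and Control), 207 (EA and MS) and 204 (EA and Control) kept their side of the thresholds or stayed within the spread between rats. The 10 and 3 others of the first 2 comparisons came from scaling to the summed counts of the 9 genes, and the 6 of the third were *ND4* without Control A1 or A6 and *Rnr2* without A1, A2, A6 or C10. The count of the 9 genes past both thresholds between EA and Control was 1, and lay between 0 and 1 when each rat was left out in turn (0 without Control A1 or A6). Without the fold threshold it was 3, and that of the nuclear subunit genes was 2 in place of 0. With *ATP6* alone as the reference, the log2 difference of *ATP8* was 0.86 in place of 1.27 (MS and Control) and 0.99 in place of 1.45 (EA and Control). The number of all genes past both thresholds between MS and Control was 4, and 207 with any gene of at least 1 count, 69 with DESeq2, 119 with the likelihood ratio test, 11 with 6 rats, and 2 to 22 without 1 rat. Between EA and MS it was 3, and 72, 42, 49 and 1 in the same order, 0 with at least 10 counts in every rat, 608 with scaling to the 9 genes, and 1 to 4 without 1 rat. Between EA and Control it was 230, and 469, 316, 418 and 251, 344 with scaling to the 9 genes, and 69 (without A1) to 304 without 1 rat. The causes of these differences were not tested. No paired analysis was possible because the groups are different animals and share fewer than 2 replicate numbers. The lowest count of a protein gene in any rat was 521 (*ND3*), while all tRNA genes together had as few as 765 counts in a rat.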
